A study of Mus musculus with 171 samples.

Results

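A set of 10 genes for heat shock proteins and chaperones was examined in cells of the mouse blastocyst: Hspa1a, Hspa1b, Dnajb1, Hsph1, Hsp90aa1, Hspa8, Hsp90ab1, Hspa5, Hspd1 and Hspe1. They were found by matching Ensembl identifiers to these symbols, and all 10 were among the 49671 gene rows of the count table. Together they held 1.34% of all counts, and between 0.826% and 2.35% when counts were summed per embryo and lineage.

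Chaperones bind unfolded stretches of other proteins and use ATP to fold them or to keep them from aggregating. HSP70 proteins take up a client that a J-domain partner brings to them, a nucleotide exchange factor lets the client go, and HSP90 finishes the folding of kinases, hormone receptors and other signalling proteins. Heat and other proteotoxic stress switch on part of this system through HSF1, which binds repeats of GAA in promoters. The unfolded protein response raises the chaperones of the endoplasmic reticulum (ER) through a separate promoter element, and a chaperonin pair folds proteins imported into mitochondria. In the mouse, the inducible HSP70 genes are among the first to be transcribed by the embryonic genome. The HSP90 machinery is known to bind STAT3 as a client, and STAT3 is the transcription factor through which LIF sustains naive pluripotency.

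The members fall into classes by what is known of them. Hspa1a and Hspa1b encode the stress-inducible cytosolic HSP70, Dnajb1 its J-domain partner, Hsph1 the HSP110 exchange factor and Hsp90aa1 the inducible HSP90. Hspa8 encodes the constitutive HSP70 and Hsp90ab1 the constitutive HSP90. Hspa5 (BiP) is the HSP70 of the ER, and Hspd1 (HSP60) and Hspe1 (HSP10) form the mitochondrial chaperonin.

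The cells came from embryos of 2 Stat3 genotypes, Stat3 -/- (null, titled MUT) and Stat3 +/+ (wild type, WT), and 1 sample is 1 cell. At embryonic day (E) 3.5 there were 55 inner cell mass (ICM) cells of 5 null embryos and 64 of 5 wild-type embryos. At E3.75 there were 9 epiblast (EPI) and 14 primitive endoderm (PrE) cells of 4 null embryos, and 19 EPI and 10 PrE cells of 3 wild-type embryos. The stage is that of the titles: the source label gives E3.5 for all cells, those titled E3.75 included, so every comparison by stage rests on the titles. The EPI and PrE of an E3.75 embryo come from the same animal. The sources used here do not state how the Stat3 allele was made, the strain or the mothers' genotype, and the embryo is read from a number in the title that no label explains. Titles also carry a letter of unexplained meaning, A to C at E3.75 and D to H at E3.5, so letter and stage cannot be told apart. All tests used counts summed per embryo and lineage.

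The 24 sums held 8117787 to 122331780 counts, and single cells 7528770 or more at E3.75 but as few as 163822 at E3.5. At E3.75 the PrE sum of wild-type embryo 3 and the EPI sum of null embryo 2 each rest on 1 cell. Stat3 itself checked the genotype labels: it was at 6.28 ± 5.57 CPM (counts scaled to 1000000 per sum; SD, n = 5) in null and 70.7 ± 25.02 (SD, n = 5) in wild-type ICM, at 8.76 ± 12.3 (SD, n = 4) and 133 ± 42.5 (SD, n = 3) in EPI, and at 12.7 ± 5.79 (SD, n = 4) and 91.5 ± 59.2 (SD, n = 3) in PrE, and the genotypes did not overlap in any lineage. The lineage markers set 1 sum apart, the PrE of wild-type embryo 1, where no cell held PrE markers above EPI markers. Of its 3 cells, 2 held PrE markers (Gata6, Gata4, Sox17, Pdgfra, Sox7 and Foxa2, summed) at 1231 and 1299 CPM beside EPI markers (Nanog, Sox2, Fgf4, Tdgf1, Klf2 and Esrrb, summed) at 1952 and 1637 CPM. The remaining cell held both lists near 100 CPM (94.5 and 99.3) with 9992 CPM of trophectoderm markers, 5848 of them from the keratin Krt8. A PrE cell of wild-type embryo 2 was also mixed, with PrE markers at 992 and EPI markers at 1138 CPM. Values of the members, Stip1 and Egr1 that the text takes from fits with the PrE sum of wild-type embryo 1 are also given without it where they were called, stood near the threshold or moved.

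Promoter sequences of 7 of the 10 members were in the RefSeq table used (build GRCm38.p6, the patch release of mm10). They are shown because they separate the members by the element each carries: the heat shock element of HSF1, here a pair of facing GAA units (GAANNTTC or TTCNNGAA), or the ER stress element of the unfolded protein response (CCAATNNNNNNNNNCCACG). Each was searched on both strands of the 250 bases before the start only. Capitals mark the match, and every sequence runs 5′ to 3′ on the gene's strand. The 2 inducible HSP70 genes lie on the same strand of chromosome 17, Hspa1a at chr17:34969190-34972156 and Hspa1b at chr17:34956436-34959238. Their 250 upstream bases, intergenic and free of annotated exons, differed at 3 of 250 positions, and each held GAANNTTC 104 bases before the start.
Hspa1a, chr17:34972157-34972406, minus strand: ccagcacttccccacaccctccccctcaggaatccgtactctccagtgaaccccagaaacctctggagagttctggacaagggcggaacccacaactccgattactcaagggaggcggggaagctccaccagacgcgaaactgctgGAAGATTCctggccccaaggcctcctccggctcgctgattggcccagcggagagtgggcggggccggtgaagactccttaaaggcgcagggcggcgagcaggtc
Hspa1b, chr17:34959239-34959488, minus strand: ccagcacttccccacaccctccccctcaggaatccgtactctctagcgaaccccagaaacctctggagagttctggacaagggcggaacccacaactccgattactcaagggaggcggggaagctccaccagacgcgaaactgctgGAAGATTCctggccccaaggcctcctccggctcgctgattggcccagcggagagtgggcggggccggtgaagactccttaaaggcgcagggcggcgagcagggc

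Hspd1 and Hspe1 are transcribed in opposite directions from a shared start region on chromosome 1 (chr1:55077835-55088243, minus strand, and chr1:55088132-55091307, plus strand). A run of 3 overlapping heat shock elements lies between the RefSeq starts used, in an exon of a Hspd1 transcript, and is printed on either strand. Hsph1 (chr5:149614287-149636376, minus strand) has a single element at the edge of its first exon. The Hspa5 gene (chr2:34771970-34777547, plus strand) has the ER stress element 65 bases before the start used here, inside an exon of a longer transcript.
Hspd1, chr1:55088053-55088082, minus strand: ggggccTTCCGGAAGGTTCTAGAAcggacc
Hspe1, chr1:55088053-55088082, plus strand: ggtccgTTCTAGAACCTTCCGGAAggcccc
Hsph1, chr5:149636354-149636377, minus strand: tagaatctTTCTCGAAggctcgag
Hspa5, chr2:34772020-34772048, plus strand: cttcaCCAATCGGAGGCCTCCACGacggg

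Among the 32851 promoter windows of the table, 12.84% held a heat shock element in either form and 0.1126% held the ER stress element. At least 3 GAA units in alternating orientation were held by 0.4657%. The 3 overlapping elements of Hspd1 and Hspe1 make a longer run, whose share was not counted. The other Hspd1 window, upstream of the start of the annotated gene (chr1:55088244-55088493), held no match to either heat shock element form. The Dnajb1 windows (gene at chr8:83608193-83612653, plus strand) held no match to either form. Hspa8 (chr9:40800984-40810087, plus strand), Hsp90aa1 (chr12:110690605-110702728, minus strand) and Hsp90ab1 (chr17:45567775-45573271, minus strand) were not in the table.

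Levels spanned more than 3 orders of magnitude, with HSP90 and Hspa8 at the top and the inducible HSP70 genes near 0. Per kilobase of exon, on the scale of CPM of total counts, wild-type ICM held Hsp90ab1 at 1773 ± 681 (SD, n = 5), Hsp90aa1 at 1305 ± 584, Hspa8 at 759 ± 54.5, Hspd1 at 389 ± 120, Hspe1 at 306 ± 125 and Hspa5 at 172 ± 92.6. Dnajb1 at 54.9 ± 58.3 and Hsph1 at 50.8 ± 13.6 followed, then Hspa1a at 0.580 ± 0.710 and Hspa1b at 0.206 ± 0.335. The neighbours Hsp90ab1 and Hsp90aa1, Hspd1 and Hspe1, and Dnajb1 and Hsph1 differed by less than their SDs. In null PrE the order from the top was Hsp90ab1 at 1098 ± 402 (SD, n = 4), Hsp90aa1 at 624.8 ± 164, Hspe1 at 548 ± 191, Hspa5 at 542 ± 130, Hspd1 at 473 ± 127 and Hspa8 at 367 ± 43.3. On this scale Hspa5 stood above Hspa8 there and below it in wild-type ICM. The lengths cover all annotated exons, 4301 bases for Hspa8 and 4229 for Hspa5. The longest coding transcripts have 2394 and 3672 bases, so the order of genes, these included, depends on the length used.

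**Figure D1:**
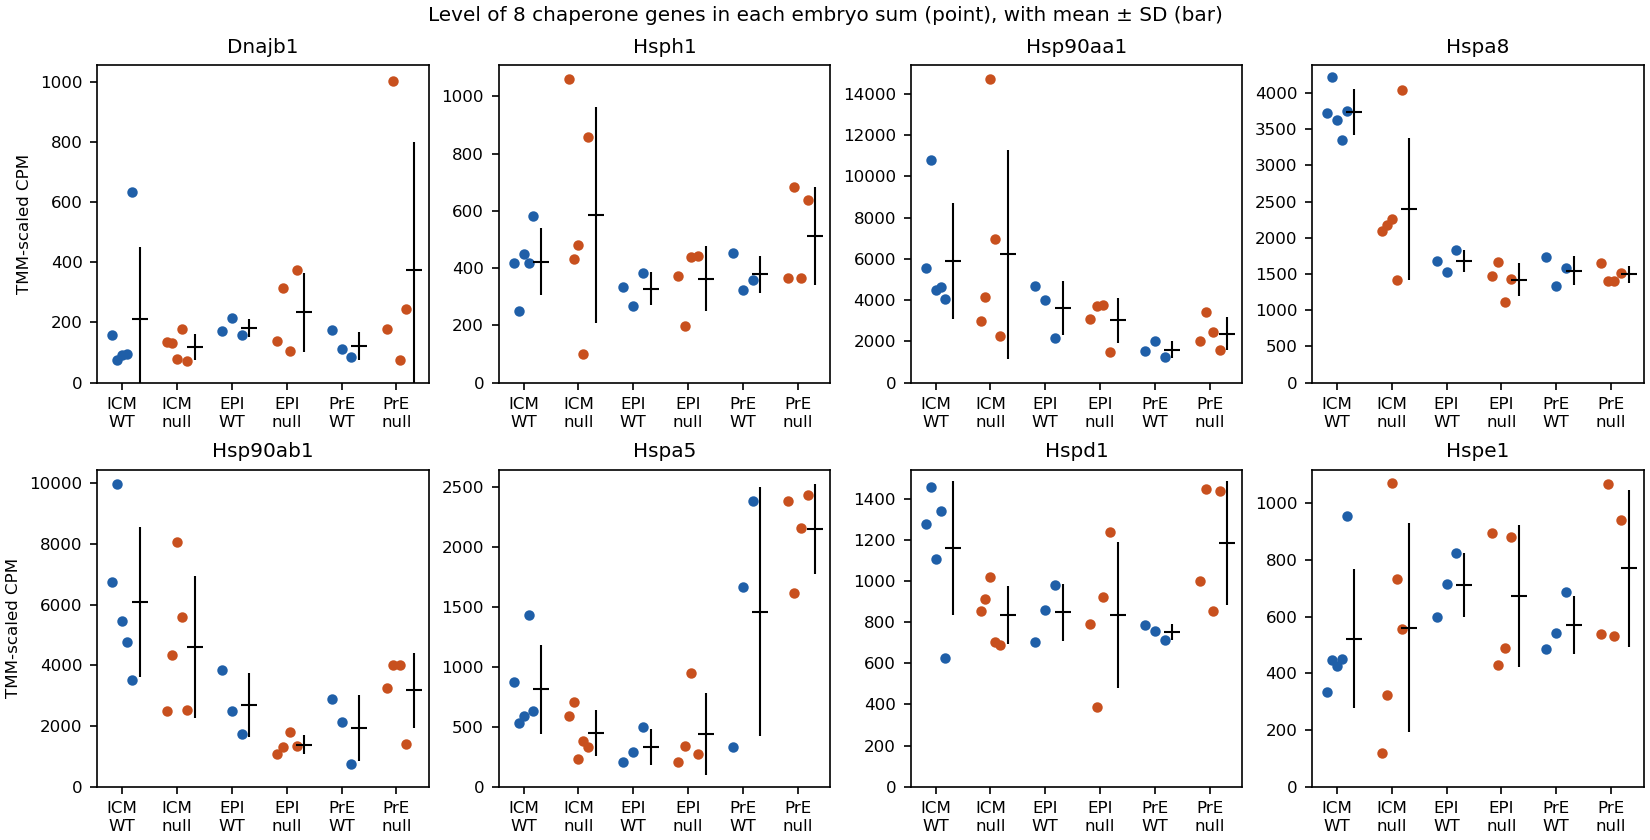
Level of 8 chaperone genes (linear axis, TMM-scaled CPM) in each embryo sum, by lineage and genotype; points are embryos, bars the mean ± SD. Wild-type ICM embryos hold more Hspa8 than every EPI and PrE sum, Hspa5 is high in all PrE sums but 1, and single embryos stand far above the rest in Dnajb1 and Hsp90aa1.

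The groups were compared in 9 ways, by genotype, lineage and stage, each fitted over all genes with edgeR's quasi-likelihood test and Benjamini-Hochberg adjustment, and a gene was called where the adjusted p fell under 0.05. The 8 members other than Hspa1a and Hspa1b passed the filter on low counts in every comparison. Hspa1a also passed in 4 of them and Hspa1b in 2, mostly through a few embryos, so neither is counted as support below.

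Between the genotypes, 0 of 9 members were called in the ICM, where 0% of 12270 genes were. Likewise 0 of 8 were called in EPI (0% of 12298 genes) and 0 of 8 in PrE (0% of 11765 genes). Stat3 itself was among the genes not called, with a log2 fold change in EPI of −3.93 (SE 1.59, adjusted p = 0.97, edgeR). The absence of calls is therefore no evidence that the members were unchanged. At an unadjusted p under 0.05 there was 1 member in each lineage, Hspa5 in the ICM, Hsp90ab1 in EPI and Hspd1 in PrE, beside 815, 570 and 545 genes in all. DESeq2 called no member and 108, 187 and 157 genes in the 3 lineages, and limma-trend no member and 2, 0 and 0 genes. A limma-voom fit with the title letter as a term called 4 of 9 members in the ICM, and its values are given further on. The embryo values of the genotypes did not overlap for 0 of 9 members in the ICM, 0 of 8 in EPI and 1 of 8 in PrE (Hspd1), against 1.61%, 7.62% and 6.71% of all genes.

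Between the lineages at E3.75, 0 of 8 members were called in wild type (0.0314% of 12733 genes) and 1 of 8 in null embryos (1.65% of 10698 genes), which was Hspa5, lower in EPI. In wild type 2 members had an unadjusted p under 0.05, Hsp90aa1 and Hspa5, beside 1190 of the 12733 genes, and DESeq2 called those 2 among 727 genes. Values did not overlap for 1 of 8 members in wild type (Hsp90aa1) and 1 of 8 in null embryos (Hspa5), against 18.4% and 10.2% of all genes.

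Between the stages, 1 of 10 members was called in wild-type EPI against ICM (0.308% of 13972 genes) and 1 of 10 in wild-type PrE against ICM (0.349% of 13190 genes). In both cases it was Hspa8, lower at E3.75. In null embryos 0 of 8 were called in EPI against ICM (0.0682% of 11733 genes), with 2 at an unadjusted p under 0.05 (Hsp90ab1 and Hspa8) beside 948 genes in all. Hsp90ab1 was also called there by DESeq2, among 414 genes, and by limma-trend, among 223. In null embryos 1 of 9 was called in PrE against ICM (0.507% of 12040 genes), which was Hspa5, higher in PrE. Values did not overlap for 3 of 10 members in wild-type EPI (Hspa8, Hspa5 and, at a few counts, Hspa1a), 1 of 8 in null EPI (Hsp90ab1), 3 of 10 in wild-type PrE (Hspa8, Hsp90aa1 and Hsp90ab1) and 1 of 9 in null PrE (Hspa5). The matching shares of all genes were 15.4%, 4.9%, 14.5% and 6.68%. The genotype comparisons share their samples with the lineage and stage comparisons of the same group.

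**Figure D2:**
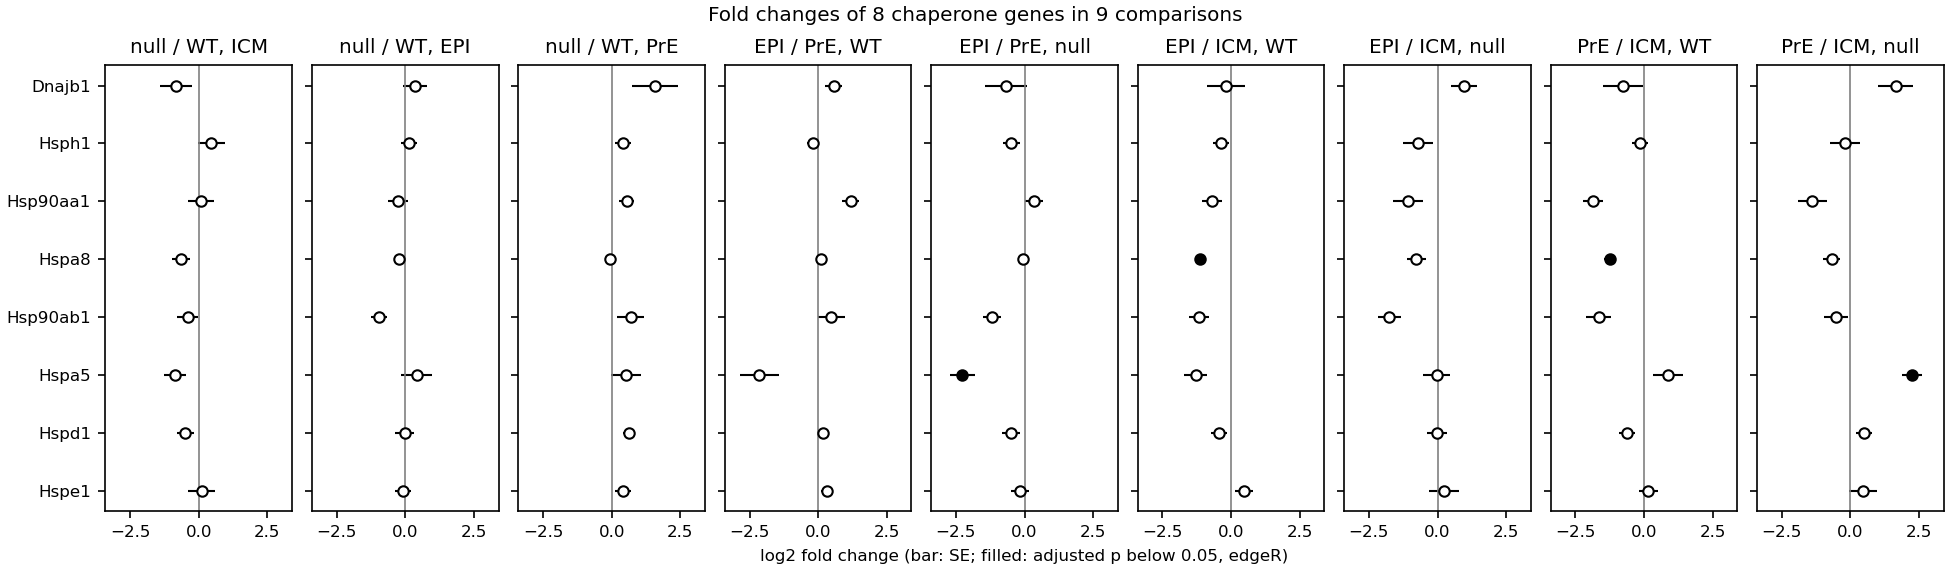
Log2 fold changes (horizontal axis) of 8 chaperone genes in the 9 comparisons, with the SE as a bar; filled points have an adjusted p below 0.05 in edgeR's test. The 4 filled points are Hspa8 lower in wild-type EPI and PrE than in ICM, and Hspa5 in null embryos, lower in EPI than PrE and higher in PrE than ICM.

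The inducible HSP70 genes were nearly silent. Hspa1a and Hspa1b together gave 1353 of 1152245841 counts, and 23 of 171 cells (13.5%) had any count, 17 cells for Hspa1a, 11 for Hspa1b and 5 for both. By group these were 8 of 64 wild-type and 9 of 55 null ICM cells, 1 of 19 and 1 of 9 EPI cells, and 2 of 10 and 2 of 14 PrE cells. Hspa1a was at 0 in all 19 wild-type EPI cells, which at 3 counts over the group allows up to 0.0144 CPM, counting error only. Hspa1b was at 0 in null EPI and in null PrE, which allows up to 0.0333 and 0.0195 CPM. Because a single cell can hold a count through depth alone, cells were also thinned to 1000000 counts, which left out 8 null and 3 wild-type ICM cells. Hspa1a was then seen in 6 of 47 null and 5 of 61 wild-type ICM cells (12.8% and 8.20%), against 7 of 55 and 6 of 64 (12.7% and 9.38%) unthinned. Hspa1b was seen in 1 of 47 null and 3 of 61 wild-type ICM cells (2.13% and 4.92%) after thinning, against 3 of 55 and 6 of 64 before.

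Where the inducible genes were detected, the level was low and came from single cells. The highest cell, in wild-type ICM embryo 22, held 291 Hspa1a and 3 Hspa1b counts, 42.0 and 0.433 CPM. A cell of wild-type ICM embryo 20 held 176 Hspa1a counts (28.6 CPM), and 1 of null PrE embryo 2 held 331 (25.9 CPM). Hspa1b led in others, with 127 counts (17.3 CPM) and no Hspa1a in a cell of wild-type ICM embryo 22, and 115 counts (10.7 CPM) and no Hspa1a in the wild-type PrE cell of embryo 1 with trophectoderm markers. The 2 transcripts share 66.3% of the 50-base windows of Hspa1a and 62.3% of those of Hspa1b with other genes, mainly each other, so the split between the copies is uncertain. How the authors treated reads that match both copies is not stated. If such reads were dropped, the sum of the copies and the limits at 0 counts would be too low, which was not tested.

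**Figure D3:**
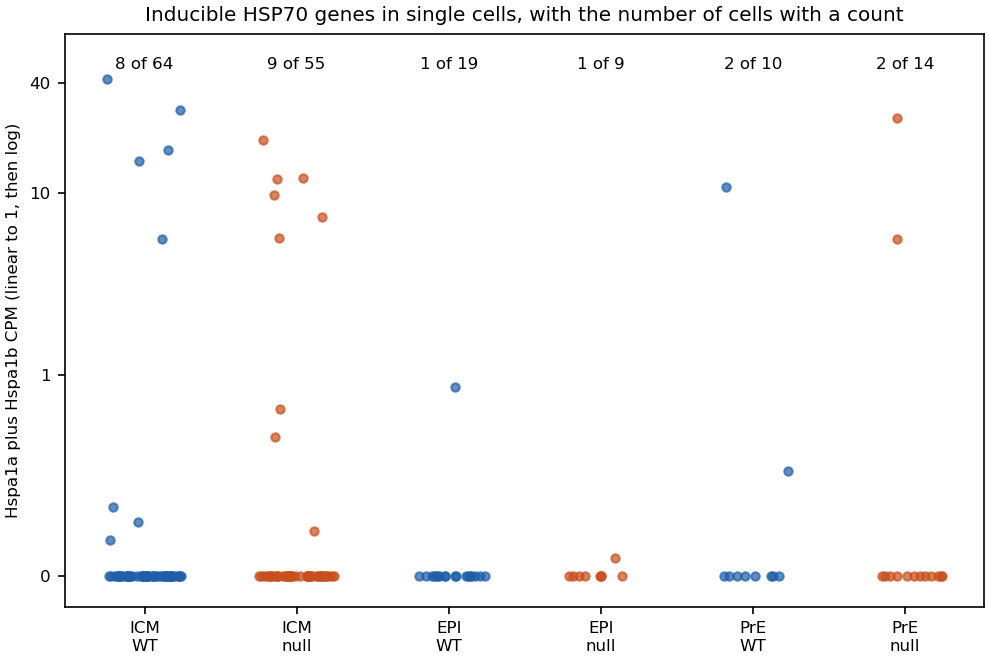
Hspa1a plus Hspa1b in single cells (vertical axis in CPM, linear up to 1 and logarithmic above) by lineage and genotype; points are cells, spread sideways at random, and the text above gives cells with a count of all cells. Most cells are at 0 in each group, and the highest is at 42.0 CPM in wild-type ICM.

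The cells with inducible HSP70 counts did not hold the other inducible genes high throughout. Dnajb1 lay above the median of the cell's own embryo in 15 of the 23, and in 9 of the 12 with at least 10 such counts. In those 12 cells its median was 194 CPM, against 105 in the 159 others. Hsph1 lay above its embryo median in 6 of the 12, with medians of 561 and 330 CPM, and Hsp90aa1 in 5 of the 12, with medians of 3366 and 3730 CPM. By the rule used to name genes with a like pattern across all 171 cells, Dhrs1 (r = 0.30) came first of 7862 genes, a weak correlation in sparse counts that is given as a description only.

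Dnajb1, the J-domain partner that feeds clients to HSP70, varied more within lineages than between them. In wild-type ICM embryos 13, 16, 20, 21 and 22 it was at 159, 73.2, 90.6, 95.7 and 634 CPM, and in null ICM embryos 2, 10, 18, 23 and 24 at 79.1, 133, 132, 178 and 71.2. Embryo 22, the embryo of the highest single inducible HSP70 cell, stood apart and the other wild-type values lay among the null ones. Null PrE embryos 1, 2, 4 and 5 held 178, 1002, 74.5 and 243 CPM against 174, 110.5 and 83.9 in wild-type PrE embryos 1, 2 and 3. The high value came from embryo 2, whose 2 cells held 313 and 1404 CPM, the latter being the cell with 331 Hspa1a counts. Among the PrE cells of an embryo the SD of Dnajb1 was 1.53 on the log2 scale, above 97.3% of the 1672 genes with a mean log level of at least 100 CPM. In EPI it was 0.72, above 83.3% of 1743 such genes. In the ICM it was 1.83, where Dnajb1 lay under that level and was not ranked, and the median of the 989 ranked genes was 1.17. No comparison called Dnajb1, and its log2 fold change of null over wild-type ICM, −0.83 (SE 0.58, adjusted p = 0.86), was 0.15 without embryo 22.

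Hsph1, the HSP110 that releases clients from HSP70, was called in no comparison. It was at 422 ± 118 CPM (SD, n = 5) in wild-type and 586 ± 378 (SD, n = 5) in null ICM, where the null embryos reached from 100.1 to 1061. At E3.75 its group means lay between 327 ± 57.1 (SD, n = 3) in wild-type EPI and 513 ± 171 (SD, n = 4) in null PrE. Its largest fold change in size was a log2 of −0.70 (SE 0.55, adjusted p = 0.86) in null EPI against ICM, with overlapping groups.

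The HSP90 genes were the most abundant members in wild-type ICM, and both were lower at E3.75 than in the ICM by point estimate in every stage comparison. Hsp90aa1, the inducible isoform, was at 5550, 10793, 4468, 4612 and 4053 CPM in wild-type ICM embryos 13, 16, 20, 21 and 22. It was at 4696, 3987 and 2178 in wild-type EPI embryos 1, 2 and 3 and at 1535, 2034 and 1217 in the PrE of the same embryos. PrE thus lay under every ICM embryo, with a log2 fold change of −1.87 (SE 0.36, adjusted p = 0.0596), short of the threshold, while DESeq2 and limma-trend called it. Without the PrE sum of wild-type embryo 1 it was −1.83 (SE 0.44, adjusted p = 0.15). In null ICM embryos 2, 10, 18, 23 and 24 Hsp90aa1 ranged more widely, at 14710, 2989, 4170, 6948 and 2251 CPM. Against those the null PrE values of 2018, 3421, 2455 and 1579 CPM overlapped, and the log2 fold change was −1.39 (SE 0.53, adjusted p = 0.37).

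Within E3.75 embryos, Hsp90aa1 was higher in EPI than in PrE of the same animal in 3 of 3 wild-type and 3 of 4 null embryos. The wild-type log2 fold change was 1.18 (SE 0.32, adjusted p = 0.25), without overlap of the lineages, and 0.93 (adjusted p = 0.48) without embryo 1, whose PrE cells held mixed or trophectoderm markers. The null log2 fold change was 0.36 (SE 0.33, adjusted p = 0.86). The difference between the genotypes was a log2 of −0.85 (SE 0.49, adjusted p = 0.96, edgeR interaction term).

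Hsp90ab1, the constitutive isoform, was at 6749, 9991, 5462, 4756 and 3502 CPM in wild-type ICM embryos 13, 16, 20, 21 and 22 and at 8069, 2482, 4328, 5598 and 2516 in null ICM embryos 2, 10, 18, 23 and 24. At E3.75 null EPI held 1065, 1312, 1807 and 1354 CPM in embryos 1, 2, 4 and 5, under every null ICM embryo, with a log2 fold change of −1.76 (SE 0.42, adjusted p = 0.18), which DESeq2 and limma-trend called. Wild-type PrE held 2897, 2146 and 762 CPM in embryos 1, 2 and 3, under every wild-type ICM embryo, with a log2 fold change of −1.65 (SE 0.45, adjusted p = 0.15), or −2.05 (SE 0.51, adjusted p = 0.16) without the PrE sum of embryo 1. Neither passed edgeR's threshold.

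The lineages of null and wild-type embryos held Hsp90ab1 in opposite order. EPI was lower than PrE in 4 of 4 null embryos, whose PrE held 3257, 4027, 4010 and 1409 CPM, with log2 differences of −1.61, −1.62, −1.15 and −0.06. EPI was higher in 3 of 3 wild-type embryos, at 3834, 2506 and 1734 CPM, by 0.404, 0.224 and 1.18. The PrE of wild-type embryo 3 and the EPI of null embryo 2 are 1 cell each. The PrE cells of wild-type embryo 1 held mixed or trophectoderm markers. The interaction was a log2 of −1.70 (SE 0.59, unadjusted p = 0.0129, adjusted p = 0.72) in edgeR's test, so the difference did not pass over all genes, where 0% of 14220 genes did. Without the PrE sum of wild-type embryo 1 it was −2.11 (SE 0.61, adjusted p = 0.81). The genotypes share only letter A at E3.75 (null embryos 4 and 5, wild-type embryo 3), so most of this contrast also separates letters. In PrE cells Hsp90ab1 moved with the summed trophectoderm markers (r = 0.53 over 24 cells of 7 embryos), and the part of those markers in the result was not tested.

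Hspa8, the constitutive HSP70 that also uncoats clathrin vesicles and serves chaperone-mediated autophagy, fell from the ICM to E3.75 in wild type. Wild-type ICM embryos 13, 16, 20, 21 and 22 held 3725, 4228, 3624, 3346 and 3749 CPM, wild-type EPI embryos 1, 2 and 3 held 1675, 1527 and 1832, and their PrE held 1730, 1331 and 1580. Every E3.75 sum lay under every wild-type ICM sum. The log2 fold change was −1.14 (SE 0.17, adjusted p = 0.0407, edgeR) in EPI and −1.25 (SE 0.19, adjusted p = 0.0321, edgeR) in PrE.

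The calls on Hspa8 stood close to the threshold, and leaving out an embryo took the adjusted p above it for 6 of 8 embryos in EPI (up to 0.278) and 6 of 8 in PrE (up to 0.184), all with the same sign and a log2 fold change between −1.08 and −1.33. Without the PrE sum of embryo 1, whose cells held mixed or trophectoderm markers, the PrE value was −1.33 (SE 0.23, adjusted p = 0.0795). Giving each cell the same weight (limma-trend, from mean log values per embryo) gave −0.31 (adjusted p = 0.27) and −0.46 (adjusted p = 0.15). Hspa8 shares 74.8% of its 50-base windows with other genes, mostly the processed copies Gm15459 and Gm26825, which held 398149 and 273484 counts beside its own 2705086. With such copies added to it, the log2 fold changes were −1.25 and −1.36, so the difference was no smaller with them.

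In null embryos the ICM values of Hspa8 were spread, at 2257, 2095, 2179, 1422 and 4039 CPM in embryos 2, 10, 18, 23 and 24. Null EPI held 1472, 1665, 1117 and 1426 CPM and null PrE 1654, 1402, 1407 and 1513 in embryos 1, 2, 4 and 5. The lowest ICM embryo lay among them, and the log2 fold changes of −0.77 (SE 0.36, adjusted p = 0.62) and −0.68 (SE 0.32, adjusted p = 0.55) were not called. The change of stage was not shown to differ by genotype: the interaction was a log2 of 0.39 (SE 0.37, adjusted p = 0.89) for EPI and 0.59 (SE 0.36, adjusted p = 0.69) for PrE, in fits where 0% of 15756 and 0% of 15614 genes passed. Between EPI and PrE, Hspa8 was level, with log2 fold changes of 0.12 (SE 0.15) in wild type and −0.06 (SE 0.15) in null embryos.

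Hspa5, the ER HSP70 that also holds the sensors of the unfolded protein response inactive, was higher in PrE than in EPI at E3.75. Null PrE embryos 1, 2, 4 and 5 held 2389, 1617, 2158 and 2440 CPM, and the EPI of the same embryos 208, 338, 948 and 277. The lineages did not overlap, EPI was lower in 4 of 4 embryos, and the log2 fold change of EPI over PrE was −2.27 (SE 0.45, adjusted p = 0.0443, edgeR). With the embryo as a replicate block, which uses that both lineages came from the same animal, it was −2.52 with an adjusted p of 0.0869 in edgeR's test, above the threshold. Without the sums of 1 cell (the EPI of embryo 2) the adjusted p was 0.124, and leaving out an embryo kept the call only for embryo 4 (0.00535), the other 3 giving 0.149 to 0.206.

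Wild-type embryos showed the same order with 1 sum apart. PrE held 334, 1665 and 2384 CPM in embryos 1, 2 and 3, and EPI 208, 287 and 500. EPI was lower in 3 of 3 embryos, by 0.683, 2.53 and 2.25 on the log2 scale, and the log2 fold change was −2.14 (SE 0.72, adjusted p = 0.38), or −2.37 (SE 0.37, adjusted p = 0.23) without embryo 1. The low PrE sum is that of the 3 cells with mixed or trophectoderm markers, at 257, 260 and 479 CPM of Hspa5. The part of those markers in its level was not tested. The lineage difference was not shown to depend on genotype (interaction −0.14, SE 0.82, unadjusted p = 0.86), and without the PrE sum of embryo 1 the interaction was 0.33 (SE 0.67).

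**Figure D4:**
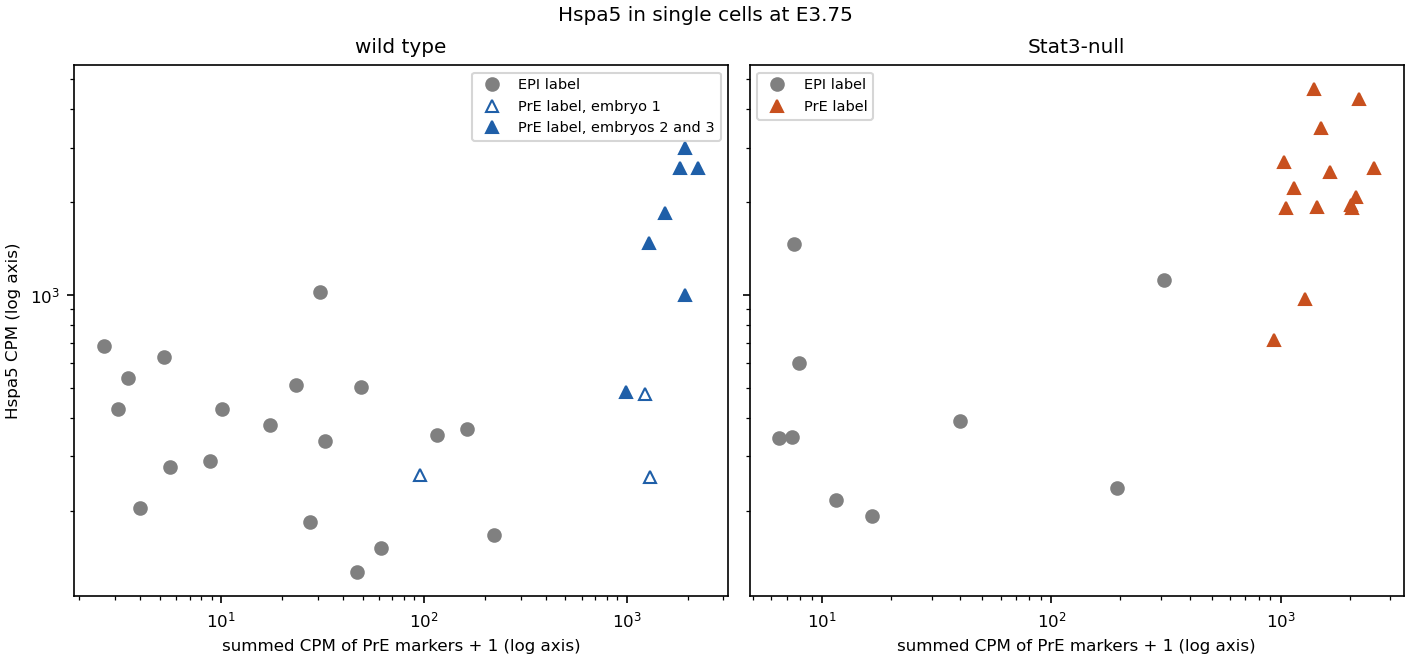
Hspa5 (vertical axis, CPM, logarithmic) against the summed PrE markers (horizontal axis, CPM plus 1, logarithmic) in the 52 cells of E3.75, wild type on the left and Stat3-null on the right; circles are EPI-labelled and triangles PrE-labelled cells, open triangles those of wild-type embryo 1. PrE-labelled cells sit high on both axes apart from the 3 open triangles, at 257 to 479 CPM of Hspa5, and a few others.

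Single cells of E3.75 followed the lineages too. In null embryos the 14 PrE cells held 715, 2145 and 4631 CPM of Hspa5 (lowest, median, highest) and the 9 EPI cells 192, 348 and 1466. In wild type the 10 PrE cells held 257, 1236 and 2992 and the 19 EPI cells 127, 368 and 1020. Within PrE embryo 2 of wild type, the cells with EPI markers at 1138 and 1084 CPM held 486 and 999 CPM of Hspa5, while the 4 with EPI markers of at most 126 CPM held 1473 to 2992. Across the 24 PrE cells Hspa5 moved with depth (r = 0.54) and against the EPI markers (r = −0.52), cells of an embryo sharing animal and letter, and neither part was tested.

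Against the ICM, Hspa5 was higher in null PrE, with a log2 fold change of 2.25 (SE 0.37, adjusted p = 0.0237, edgeR). The null ICM embryos 2, 10, 18, 23 and 24 held 233, 588, 704, 385 and 332 CPM, all under the lowest null PrE sum. The adjusted p was above the threshold for 6 of the 9 embryos left out, at most 0.0751. In wild type the ICM embryos 13, 16, 20, 21 and 22 held 871, 531, 589.8, 1437 and 632 CPM and PrE overlapped them through embryo 1, with a log2 fold change of 0.88 (SE 0.55, adjusted p = 0.51), or 1.35 (SE 0.40, adjusted p = 0.25) without that PrE sum. EPI was lower than ICM in wild type without overlap, at a log2 fold change of −1.29 (SE 0.42, adjusted p = 0.21), and level with it in null embryos (−0.03, SE 0.49). Among single cells, the highest in wild-type ICM held 5396 CPM of Hspa5, above the highest PrE cell at 4631, while the median there was 502.

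Other ER chaperones followed Hspa5. Of 24 genes of ER folding and the unfolded protein response, 24 had lower point estimates in EPI than PrE in null embryos and 22 in wild type. Their median log2 fold changes were −1.48 and −1.37, beside 0.02 and 0.03 over all genes tested. In null embryos 5 of the 24 were called, where 1.65% of all genes were, and in wild type 0, where 0.0314% were. The called genes were Serpinh1, the collagen chaperone HSP47 (log2 fold change −6.50, adjusted p = 0.00234), P4hb, a protein disulfide isomerase (−1.93, adjusted p = 0.00291), Dnajb11, a J-domain partner of BiP (−2.53, adjusted p = 0.00556), Dnajc10, a J-domain reductase (−1.70, adjusted p = 0.0105), and Manf, a small BiP-binding protein (−2.39, adjusted p = 0.0153). Hsp90b1 (GRP94), the ER HSP90, was at 1426 ± 29.7 CPM (SD, n = 4) in null PrE, 458 ± 314 (SD, n = 4) in null EPI and 227 ± 125 (SD, n = 5) in null ICM. It was called in PrE against ICM (log2 fold change 2.63, adjusted p = 0.0237), as was Manf (2.62, adjusted p = 0.0487), but not in EPI against PrE (−1.63, adjusted p = 0.0788).

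The transcription factors of the ER stress response were not called. Ddit3 (CHOP), induced by prolonged stress, was at 43.2 ± 36.0 CPM (SD, n = 4) in null PrE and 7.21 ± 10.2 (SD, n = 4) in null EPI, lower in EPI in 4 of 4 embryos (log2 fold change −2.57, adjusted p = 0.60). It was at 75.3 ± 62.1 (SD, n = 5) in null ICM (log2 fold change of PrE over ICM −0.78, adjusted p = 0.85). Xbp1, whose spliced product drives secretory genes, was at 312 ± 103 CPM (SD, n = 4) in null PrE and 151 ± 162 (SD, n = 4) in null EPI (log2 fold change −1.03, adjusted p = 0.77). Gene counts do not show whether Xbp1 was spliced. Dnajc10, Manf in EPI against PrE, Ddit3 and Xbp1 lay outside the rule for naming genes and were chosen after their values were seen. The rule for a like pattern was applied after removing embryo and lineage means over all 171 cells. The genes most like Hspa5, members left out, were Ywhae (r = 0.56), Cct2 (0.54), Hnrnpf (0.54), Gm15459 (0.52) and Stt3a (0.52). Gm15459 is a processed copy of the member Hspa8. Over the 7862 genes compared the median r was 0.01. In ICM cells Hspa5 also fell with the share of counts on short genes described below (r = −0.57). Among the members, Hspa8 had an r of 0.52 with Hspa5 over all cells. It was 0.56 over the 119 ICM cells and −0.06 over the 52 EPI and PrE cells.

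The mitochondrial pair was called in no comparison by edgeR. Hspd1, the barrel of the chaperonin, was at 1277, 1456, 1107, 1343 and 624 CPM in wild-type ICM embryos 13, 16, 20, 21 and 22 and at 1019, 853, 913, 703 and 690 in null ICM embryos 2, 10, 18, 23 and 24, which overlapped through embryo 22. In PrE the null embryos 1, 2, 4 and 5 held 1002, 1447, 856 and 1436 CPM, all above the 788, 756 and 712 of wild-type embryos 1, 2 and 3. That difference, a log2 fold change of 0.63 (SE 0.21), had an unadjusted p of 0.0164 and an adjusted p of 0.97 in edgeR's test. Without the PrE sum of wild-type embryo 1 it was 0.67 (SE 0.25). The stage effect in PrE differed between genotypes by a log2 of 1.14 (SE 0.40, unadjusted p = 0.00978, adjusted p = 0.41), or 1.16 (SE 0.45, adjusted p = 0.58) without that sum.

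Hspe1, the lid of the same chaperonin, ranged more widely among ICM than among E3.75 cells, as other well-expressed genes did. Null ICM embryos 2, 10, 18, 23 and 24 held 1071, 119, 322, 733.5 and 557 CPM and wild-type ICM embryos 13, 16, 20, 21 and 22 held 333, 448, 426, 451 and 953. E3.75 sums ranged from 429 to 1067 CPM. Single ICM cells spanned 49.2 to 3049 CPM, whereas the 52 cells of E3.75 spanned 377 to 1486. Its SD within embryos was 0.95 on the log2 scale in the ICM, above 28.5% of those 989 genes with their median of 1.17, and 0.38 in EPI and 0.33 in PrE, where the medians were 0.50 and 0.55. In wild-type EPI against ICM limma-trend called Hspe1, among 4048 of 13972 genes.

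The pair rose and fell together across the cells of E3.75 but not in the ICM. After subtracting embryo and lineage means, Pearson's r of Hspd1 and Hspe1 was 0.72 (Spearman 0.70) over 52 EPI and PrE cells, above the r of Hspd1 with 99.97% of 7869 genes. Over 119 ICM cells it was −0.36 (Spearman −0.33). Each point is a cell, and cells of an embryo share animal and, at E3.75, letter. In the 28 EPI cells both genes fell with depth (r = −0.51 for Hspd1 and −0.43 for Hspe1). In the 24 PrE cells they moved little with it (0.12 and 0.07). The part of depth was not tested.

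ICM cells differed in how much of their counts fell on short genes, and the members split by this measure. The share was taken of protein-coding counts outside the mitochondrial genome, with the members left out, a measure chosen after the data were seen. In the 3573 such genes with under 1500 bases of exon it ran from 2.95% to 34.8% in ICM cells and from 9.13% to 13.3% at E3.75. Hspe1, whose exons cover 1474 bases, is short itself but, as a member, was not counted in the share. It rose with the share in ICM cells (r = 0.85), while Hspa8 (r = −0.83), Hsph1 (r = −0.60), Hspd1 (r = −0.59) and Hspa5 (r = −0.57) fell. Hsp90aa1 (r = 0.21), Hsp90ab1 (r = −0.09) and Dnajb1 (r = −0.08) did so little. After the linear relation with that share was removed, r of Hspd1 and Hspe1 in the ICM was 0.34, and that of Hspe1 and Hspa8 went from −0.67 to 0.13. That of Hspa8 and Hspa5 went from 0.56 to 0.19. Hsp90aa1 and Hsp90ab1 correlated at 0.31 before and 0.34 after, and at 0.49 at E3.75.

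**Figure D5:**
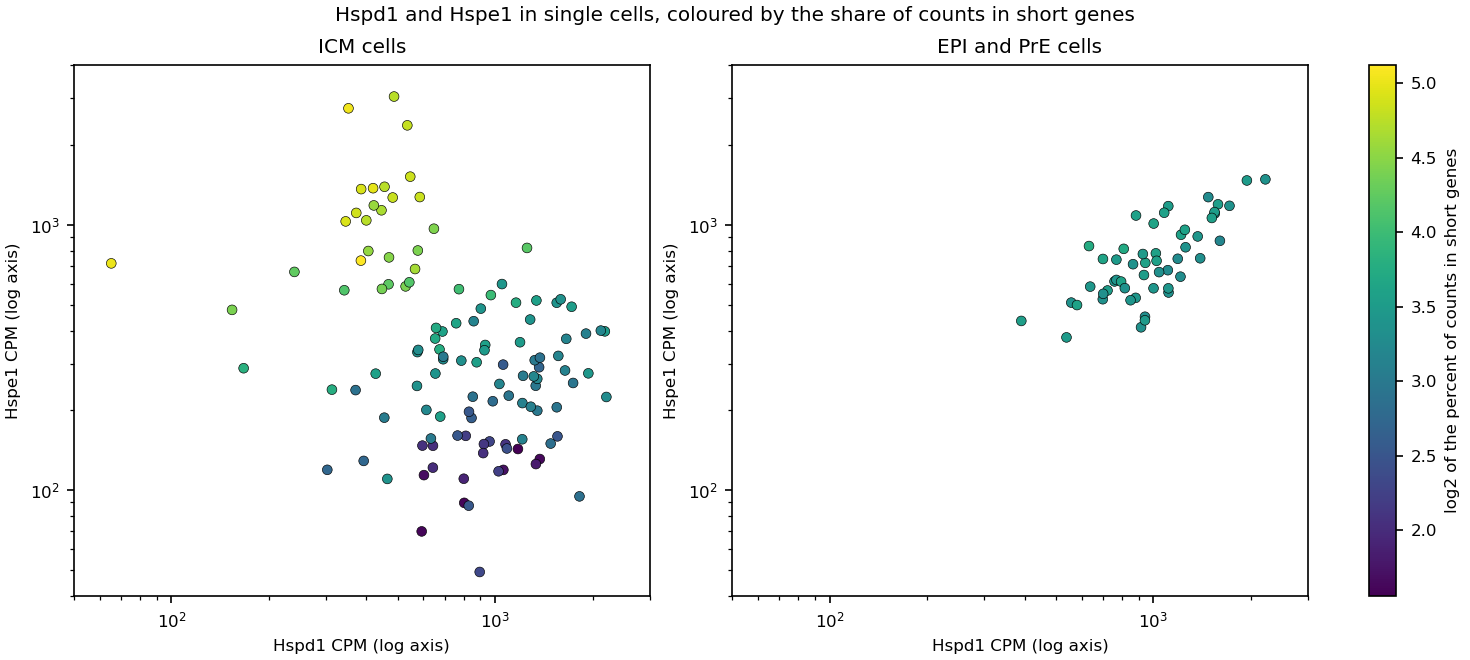
Hspd1 (horizontal axis) against Hspe1 (vertical axis) in single cells, both in CPM on logarithmic axes, for 119 ICM cells on the left and 52 EPI and PrE cells on the right; colour gives the log2 of the percent of counts in short genes. The E3.75 cells lie along a diagonal, and ICM cells spread with the yellow cells, rich in short genes, at the top.

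Within ICM embryos, the levels of Hspe1, Hspa8, Hsph1, Hspd1 and Hspa5 thus moved with the short-gene share. By embryo, its median ran from 4.07% to 21.4% in null and from 6.12% to 11.2% in wild-type ICM. Its part in the genotype and stage results was not tested, and the ICM was compared with E3.75 cells of other letters.

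A fit with the title letter as a term gave other calls between the genotypes in the ICM. It used limma-voom on 39 sums of embryo and letter from the same 10 embryos, with the embryo as a random block (consensus correlation 0.116), and 4 of 9 members were called, all lower in null: Hsp90aa1 (log2 fold change −1.02, adjusted p = 0.0314), Hspa8 (−0.94, adjusted p = 0.0383), Hsp90ab1 (−1.02, adjusted p = 0.0251) and Hspd1 (−0.78, adjusted p = 0.0112). The same fit called 598 of 12270 genes, and for Hsp90aa1 the sign was opposite to that of edgeR on 1 sum per embryo (0.08, adjusted p = 0.99). Tool, sums and the letter term changed together, so the part of the letter alone was not tested. Without a letter term Hsp90aa1 was at −0.17 in limma-trend and between −0.54 and 0.38 when 1 embryo was left out, and fits on 1 value per embryo called 0 of 9 members. Within letters D, E, F, G and H the mean log2 difference of null from wild type was −0.43, −0.52, −0.70, −0.16 and −0.42 for Hsp90aa1 and −0.41, −0.76, −0.87, −0.56 and −0.32 for Hsp90ab1, below 0 in 5 of 5 letters for both. Hspa8 was below 0 in 4 of 5, at −0.67, −0.66, 0.05, −0.86 and −1.63. Letters held 2 to 5 embryos of each genotype, so no letter was tested alone. The same 10 embryos recur across the letters, so agreement between letters is not replication. Null embryo 2, the highest in Hsp90aa1, has cells only in letters G and H.

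No lineage marker was called between the genotypes in the ICM (0 of 6 EPI, 0 of 5 PrE and 0 of 5 trophectoderm markers tested), but the summed EPI markers did not overlap. The embryo medians of the summed EPI markers were 182 to 853 CPM in null and 1123 to 2786 in wild-type embryos, and those of the summed PrE markers 63.1 to 1415 and 55.1 to 259, which overlapped. The summed trophectoderm markers overlapped too, at 149 to 317 and 99.5 to 338. Of the 7 trophectoderm markers, Cdx2, Gata3 and Elf5 were at a median of 0 in both genotypes. The part of these markers in the members' ICM values was not tested.

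In the lists of other chaperone, co-chaperone, heat shock factor and immediate early genes, no gene was called between genotypes, where 0% of all genes were. The cytosolic chaperonin TRiC and its partner prefoldin, which fold actin and tubulin, had lower point estimates at E3.75 than in wild-type ICM for 14 of 14 genes in EPI and 14 of 14 in PrE. Their median log2 fold changes were −0.77 and −0.75, beside −0.14 and −0.17 over all genes, and 1 gene was called, Cct8 in EPI (−1.17, adjusted p = 0.0429). In null embryos 10 and 12 of the 14 were lower. Stip1 (HOP), which hands clients from HSP70 to HSP90, was called lower in wild-type PrE than ICM (−1.52, adjusted p = 0.0324, or −1.56 with an adjusted p of 0.0827 without the PrE sum of embryo 1), the single called gene of 13 HSP90 co-chaperones in that comparison.

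Hspa4 (APG-2), an HSP110 relative of Hsph1, went the other way between the stages. It was at 530 ± 67.3 CPM (SD, n = 3) in wild-type EPI and 88.0 ± 46.1 (SD, n = 5) in wild-type ICM (log2 fold change 2.61, adjusted p = 0.0429, edgeR). Between the lineages, Bag2, a cochaperone that inhibits the ubiquitin ligase CHIP, was at 85.9 ± 57.1 CPM (SD, n = 4) in null PrE and 0.278 ± 0.151 (SD, n = 4) in null EPI (log2 fold change −8.20, adjusted p = 0.00217, edgeR). Of the 11 genes tested from the list of HSP40 co-chaperones, which leaves out the ER genes Dnajb11 and Dnajc10, 0 were called in wild-type EPI against PrE and 0 in null embryos, and the other mitochondrial chaperones and proteases gave 0 called of 10 in each of the 9 comparisons. Of the 8 small heat shock proteins, which hold unfolded clients without ATP, 3 to 5 passed the filter and 0 were called in any of them. Over all genes 0% to 1.65% were called in these comparisons, so 0 in lists this short says little about them.

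Egr1, an immediate early gene that handling and growth factor signals induce within minutes, was called higher at E3.75 in wild type. It was at 34.8 ± 15.5 CPM (SD, n = 5) in the ICM, 330 ± 80.2 (SD, n = 3) in EPI and 807 ± 298 (SD, n = 3) in PrE, with log2 fold changes of 3.24 (adjusted p = 0.0244) and 4.55 (adjusted p = 0.00855), the latter 4.43 (adjusted p = 0.0233) without the PrE sum of embryo 1. Of the 13 immediate early genes, 11 had higher point estimates at E3.75 in either wild-type lineage, as had 11 in null EPI and 12 in null PrE, with median log2 fold changes of 1.69 and 2.03. Dnajb1 in wild-type EPI and PrE had log2 fold changes of −0.19 (SE 0.68) and −0.76 (SE 0.72) against the ICM, 0.78 and 0.22 without ICM embryo 22, and 1.46 and 0.72 in limma-trend. Its median cell held 82.8 CPM in wild-type ICM, 189 in EPI and 147 in PrE. In null embryos the fold changes were 0.96 (SE 0.47) and 1.65 (SE 0.63). None of these was called, and their direction in wild type changed with the fit.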

How the data were processed

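Single-cell RNA-seq of 171 cells was used as a table of gene counts deposited by the authors. STAR, HTSeq and the build mm10 are named, per the submitters' processing notes, without versions or settings; library protocol and strandedness are not stated in the sources used here. Of 49671 rows, 49326 matched GENCODE vM21 identifiers, and the other 345 held 0.0101% of counts. All deposited cell columns were used, and no 2 cells were identical.

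Counts were summed per embryo and lineage into 24 sums of 17 embryos, since cells are not replicates. That embryos are separate animals rests on the number in the titles. Each comparison was fitted on its own groups by the quasi-likelihood test of edgeR 4.0.16 under R 4.3.3, with TMM factors, genes kept by filterByExpr (min.count 10), and Benjamini-Hochberg adjustment at a threshold of 0.05, and the SE is the log2 fold change over the root of F. CPM values of embryos are TMM-scaled, and those of cells, and levels per kilobase, are per 1000000 counts. Floors are 3 counts over a group. Alternatives used limma 3.58.1 (pseudocount 1), DESeq2 1.42.0, RLE scaling, no filter, no low-depth cells, no sums of 1 cell, the title letter, the embryo as a block, leaving out embryos, and, added after the data were seen, copies that share sequence and fits without the PrE sum of wild-type embryo 1. Tables and plots used Python 3.11.15, numpy 2.4.6, pandas 2.3.3, scipy 1.17.1 and matplotlib 3.10.9. The fits were tested on simulated data.

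EPI and PrE of an E3.75 embryo are paired by animal. Over 7971 genes their deviations from the group means correlated at 0.0594, 0.0477, 0.0967 and 0.123 in null embryos 1, 2, 4 and 5 and at 0.188, 0.165 and 0.108 in wild-type embryos 1, 2 and 3.

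The members and the lists (heat shock factors and regulators, other HSP70 and HSP110, HSP40 and HSP90 co-chaperones, small heat shock proteins, TRiC and prefoldin, mitochondrial and ER chaperones, immediate early genes) were chosen with earlier results of these data known. Named were all members and, per list and comparison, up to 3 called genes with the smallest p, otherwise up to 2, and the 5 genes most correlated over cells with Hspa5 and with Hspa1a plus Hspa1b.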

Additional observations from a re-analysis of the deposited data

Results flagged for a closer look

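In 7 of 38 sets of embryo values (a gene in a group of 4 or 5 embryos), the highest embryo stood apart from the rest by Dixon's criterion. For normally distributed values, chance meets it in about 1 set in 20. The values here are linear CPM and include Hspa1a and Hspa1b near 0, so no excess over chance is read from the 7. Dnajb1 in wild-type ICM embryo 22 was at 634 CPM (next embryo 159), and in the same embryo Hspe1 was at 953 CPM (next 451) and Hspa1b at 2.79 CPM (next 0.464). Hsp90aa1 in wild-type ICM embryo 16 was at 10793 CPM (next 5550). Hspa1a in null PrE embryo 2 was at 15.9 CPM (next 0.915), and in null EPI embryo 1 at 0.0434 CPM, from 1 count, with the other embryos at 0. Hspa1b in null ICM embryo 23 was at 1.30 CPM (next 0.0721).

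Hsp90ab1 was higher in EPI than PrE in every wild-type embryo and lower in every null embryo, with means of the within-embryo log2 difference 1.71 apart. The PrE of wild-type embryo 3 and the EPI of null embryo 2 are 1 cell each. The interaction term of edgeR's quasi-likelihood test gave an unadjusted p of 0.0129 and an adjusted p of 0.72.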

How the results depend on the processing

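Of 72 log2 fold changes of members, 46 kept their sign under every alternative run and 26 changed it in at least 1. None of the 4 called ones changed sign, and 1 of the 57 sign changes came with an adjusted p under the threshold, Hsp90aa1 in null over wild-type ICM with the letter as covariate. Causes of these changes were not tested.

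Counts of called members moved as follows. DESeq2 called 1 in null EPI against ICM (0 by edgeR), 2 in wild-type EPI against ICM (1), 2 in null EPI against PrE (1), 2 in wild-type EPI against PrE (0) and 3 in wild-type PrE against ICM (1). Limma-trend on embryo means called 1 in null EPI against ICM and 2 in wild-type PrE against ICM, and in wild-type EPI against ICM its 1 was Hspe1 in place of Hspa8. Without a filter 2 were called in wild-type PrE against ICM, and with the letter in limma-voom 4 in the ICM between genotypes. Without sums of 1 cell 0 were called in null EPI against PrE and 0 in wild-type PrE against ICM. Leaving out embryos gave 0 to 1 in the 4 comparisons with a call.

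With the embryo as a replicate block, 0 members were called in null EPI against PrE, where Hspa5 was paired by animal at −2.52 (adjusted p = 0.0869), and no other call of a member changed. Between genotypes, where equal numbers are different animals, the block turned Hsph1 in EPI to −0.14.

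The log2 fold changes that changed sign were these. In null over wild-type EPI, Hspd1 was 0.0067 by DESeq2, 0.0066 with RLE scaling, 0.11 in letter A and 0.20 without sums of 1 cell, Hspe1 0.068 without sums of 1 cell, and Hsp90aa1 0.24 in letter A; Hspa5 in PrE was −0.10 in letter A. With limma-trend, Dnajb1 was 1.46 in wild-type EPI and 0.72 in wild-type PrE against ICM and 0.21 in null over wild-type ICM, where Hsp90aa1 was −0.17. In null EPI against ICM it gave 0.65 for Hspa5, 0.29 for Hspa8, 0.45 for Hspd1 and 0.62 for Hsph1, in null PrE against ICM 0.32 for Hspa8 and 1.06 for Hsph1, in wild-type EPI against ICM 0.092 for Hspd1 and 0.48 for Hsph1, and in wild-type PrE against ICM 0.66 for Hsph1. With the letter, ICM values were −1.02 for Hsp90aa1 and −0.60 for Hspe1. Without sums of 1 cell, null EPI against ICM gave 0.083 for Hspa5 and 0.22 for Hspd1, and wild-type PrE against ICM −0.027 for Hspe1.

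Leaving out embryos gave these ranges. In null over wild-type ICM they were −0.54 to 0.38 for Hsp90aa1, −0.28 to 0.42 for Hspe1 and −1.06 to 0.15 for Dnajb1. In EPI they were −0.28 to 0.20 for Hspd1, −0.27 to 0.068 for Hspe1 and −0.27 to 0.83 for Hspa5, and in PrE −0.18 to 0.014 for Hspa8. In null EPI against PrE they were −1.16 to 0.32 for Dnajb1, −0.48 to 0.18 for Hspe1 and −0.18 to 0.012 for Hspa8. In null EPI against ICM they were −0.71 to 0.25 for Hspa5, −0.26 to 0.22 for Hspd1 and −0.040 to 0.61 for Hspe1, and for Hsph1 in null PrE against ICM −0.48 to 0.11. In wild type against ICM they were −0.41 to 0.78 for Dnajb1 in EPI, −1.07 to 0.22 for Dnajb1 in PrE and −0.027 to 0.48 for Hspe1 in PrE.

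Over all genes, edgeR and DESeq2 called 0 and 108 in the ICM, 0 and 187 in EPI and 0 and 157 in PrE between genotypes, 4 and 727 in wild-type and 177 and 631 in null EPI against PrE, 43 and 1069 in wild-type and 8 and 414 in null EPI against ICM, and 46 and 1198 in wild-type and 61 and 556 in null PrE against ICM. The letter fit called 598 in the ICM, the block 0 and 74 in wild-type and null EPI against PrE, and limma-trend 4048 in wild-type EPI, 223 in null EPI, 2071 in wild-type PrE and 630 in null PrE against ICM. Without sums of 1 cell, 0 genes were called in null EPI and in wild-type PrE against ICM.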
